A study of Homo sapiens with 6 samples.

Results

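The 60 genes described here cover the Wnt pathway from its secreted ligands to its feedback genes, in H69AR cells with or without Supinoxin. They were taken from the deposited table of 60605 gene identifiers by symbol, and all 60 were found. H69AR is an adherent human small cell lung cancer line that was selected in doxorubicin from NCI-H69, and Supinoxin, also called RX-5902, is a compound reported to bind the phosphorylated RNA helicase DDX5. One group holds 3 libraries from confluent wild-type H69AR cells given 70 nM Supinoxin, and the other holds 3 libraries from wild-type H69AR cells without drug. The titles and treatment labels set these groups apart, whereas the protocol text naming confluent cells and the dose is attached to all 6 samples. Everything comes from this single line, and neither the duration of treatment nor a vehicle is given in the sources used here. Whether replicates came from separate cultures is not stated in the labels; the p-values therefore rest on the spread among libraries that may differ only technically.

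Wnt ligands are lipid-modified proteins that bind a Frizzled receptor together with LRP5 or LRP6 on the receiving cell. In the absence of ligand, a complex of AXIN, APC, GSK3 and casein kinase 1 marks beta-catenin for degradation; receptor engagement recruits Dishevelled and stops this, and beta-catenin then joins TCF and LEF factors on DNA. Many of the genes switched on in this way, among them AXIN2, NKD1, NKD2, LGR5, RNF43, ZNRF3, NOTUM and APCDD1, feed back on the pathway, most of them as inhibitors. DDX5 has been described as a partner of beta-catenin in cancer cells, and beta-catenin signalling has been proposed as a route of action of Supinoxin.

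Of the 60 genes, 52 passed the filter on low counts, each with at least 1 library of either group above the cutoff of 0.281 CPM (counts scaled by library size). With Supinoxin 21 of the 52 were higher and 5 lower (edgeR quasi-likelihood test, Benjamini-Hochberg adjusted over 15947 genes, threshold 0.05), and 26 did not pass. Over all genes tested, 23.4% were higher and 25.2% lower, against 40.4% and 9.62% of the Wnt genes; calls in either direction took 48.6% of all genes and 50% of the Wnt genes, which is near that background. Medians of the log2 fold change were 0.36 for the 52 and 0.00 for all genes tested. Groups of libraries did not overlap in 30 Wnt genes that were higher and 6 that were lower, where 31.3% and 31.1% of all tested genes (62.4% in either direction) had such groups. By level of the pathway, 4 of 12 tested ligand and secretion genes were higher and 1 lower, 5 of 12 receptors were higher and 1 lower, 3 of 9 destruction complex genes and transducers were higher, 2 of 7 nuclear factors were higher, and 7 of 12 feedback genes and targets were higher and 3 lower.

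**Figure D1:**
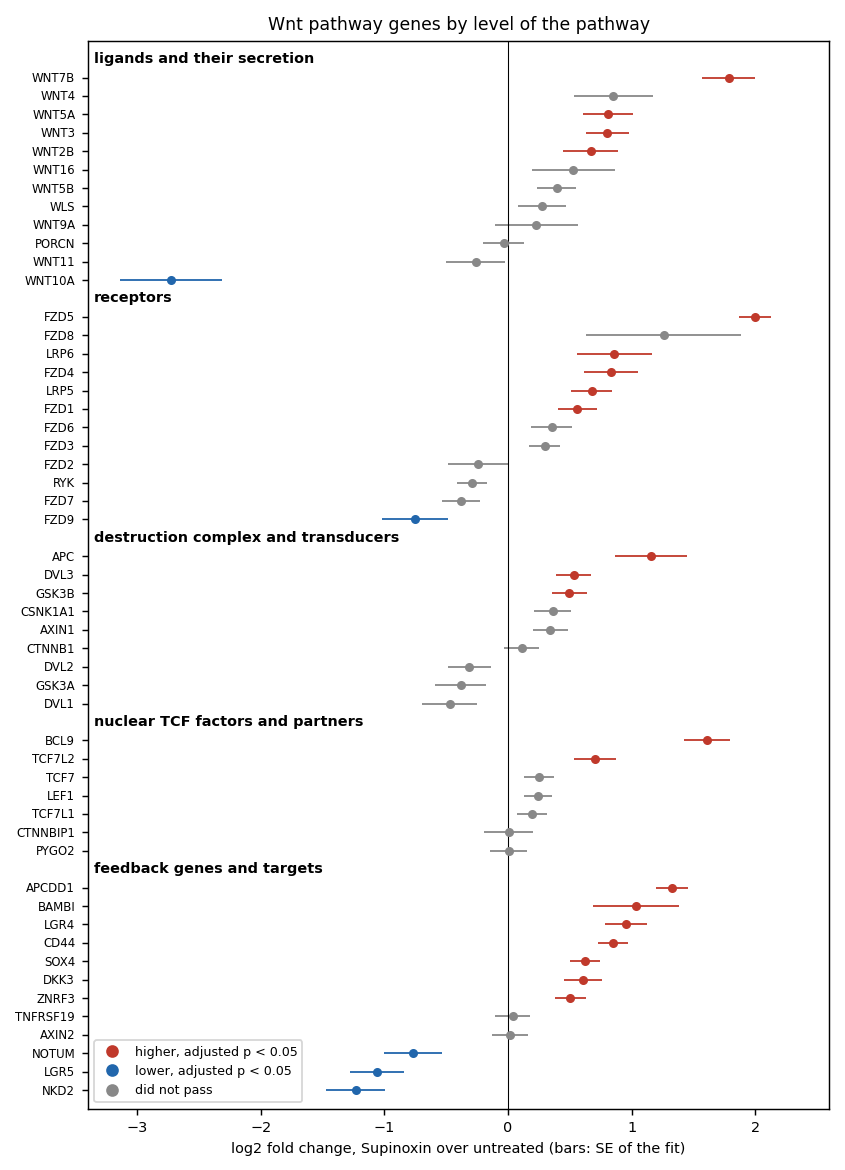
Log2 fold change (x axis, Supinoxin over untreated, n = 3 libraries each) of the 52 tested Wnt genes, grouped by level of the pathway and ordered by value; bars are the standard error (SE) of the fit and colour gives the call. FZD5 at 2.00 and WNT7B at 1.78 lie farthest to the right and WNT10A at -2.73 farthest to the left, while AXIN2 and CTNNB1 lie near 0.

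Libraries held 30136963 to 39402804 counts, and 1 CPM stands for 30.7 to 38.2 counts. Untreated replicate 1 stood apart: its counts differed from those of the other untreated libraries by a chi-square of 123 and 132 for each degree of freedom, against 32.6 between the other untreated libraries and 4.77 to 8.21 among Supinoxin libraries. Without it 27 Wnt genes were higher and 6 lower, beside 26.5% and 27.4% of all genes. DDX5 itself stood at 753, 786 and 767 CPM with Supinoxin and at 696, 863 and 885 in untreated cells, overlapping groups. The labels call the cells epithelial: of 5 epithelial markers KRT8 and KRT18 were well counted, whereas CDH1 had at most 6 counts and KRT19 at most 3 in any library, and the 5 together summed to 138 to 150 CPM with Supinoxin and 167 to 289 without. The fifth, EPCAM, fell 8.46-fold, from 11.6, 9.09 and 10.4 CPM to 1.44, 1.06 and 1.16 CPM (adjusted p = 1.89e-05), while KRT8 and KRT18 did not pass. ABCC1, the drug transporter known for its high level in this line, rose 2.97-fold, from 3526 ± 483 to 10480 ± 318 CPM (adjusted p = 9.47e-05). The part of these changes in the Wnt gene values was not tested. Of 6 neuroendocrine markers 4 were tested, of which 2 were lower and 2 did not pass. NEUROD1 was listed at 0 in all 6 libraries. INSM1 stood at 11.9 ± 0.413 CPM with Supinoxin and 19.6 ± 2.83 without (SD, n = 3 each). NCAM1 stood at 1.55 ± 0.209 and 4.50 ± 0.983 CPM. INSM1 and NCAM1 were the 2 called lower (adjusted p = 0.00398 and 0.000991 from edgeR). Of 5 fibroblast markers the collagen genes COL1A1 and COL1A2 made up nearly the whole sum (9209 to 10130 CPM with Supinoxin, 3683 to 5238 without) while DCN, LUM and PDGFRB had at most 29 counts in any library. The 5 leukocyte markers summed to 1.32 to 2.22 CPM and the 3 endothelial markers to 0.148 to 0.401 CPM over all 6 libraries. As in any bulk sample, fewer cells that express a gene and less RNA of it per cell cannot be told apart.

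Among the ligands WNT7B, WNT3, WNT5A and WNT2B rose and WNT10A fell. WNT7B (ENSG00000188064, chromosome 22, 45920366 to 45977162, GRCh38), a ligand known for canonical signalling in lung development, stood at 7.42, 7.82 and 7.42 CPM with Supinoxin and at 2.81, 2.15 and 1.60 CPM in untreated cells. Its groups lay well apart, with a 3.44-fold rise (log2 fold change 1.78, SE 0.22, adjusted p = 0.000371). WNT10A (ENSG00000135925, chromosome 2, 218880852 to 218899581), a canonical ligand of skin appendages and teeth, stood at 0.444, 0.690 and 0.166 CPM with Supinoxin and 3.76, 2.72 and 2.22 CPM without. Every Supinoxin library was below every untreated one, and the fit gave a 6.63-fold fall (log2 fold change -2.73, SE 0.41, adjusted p = 0.001). WNT3 (chromosome 17, 46762506 to 46833154), a canonical ligand, had 27.3, 26.6 and 22.8 CPM against 14.9, 17.6 and 11.5 CPM. It rose 1.74-fold without overlap of the groups (adjusted p = 0.0049).

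WNT5A (chromosome 3, 55465715 to 55490539), best known for beta-catenin-independent signalling through ROR2, had 43.1, 38.2 and 38.9 CPM with Supinoxin and 16.7, 30.3 and 21.5 CPM without. The rise was 1.75-fold (SE 0.20 on the log2 scale, adjusted p = 0.00955), and the lowest untreated value was that of replicate 1. Its close relative WNT5B (chromosome 12, 1529891 to 1647212) had 59.3, 57.3 and 55.0 CPM against 49.8, 47.0 and 33.6 CPM. Those groups did not overlap, yet the log2 fold change of 0.39 (95% interval 0.04 to 0.75) did not pass after adjustment (adjusted p = 0.0657), and it passed without untreated replicate 1 (adjusted p = 0.0107). WNT2B, at 2.95, 3.18 and 3.89 against 1.66, 2.15 and 2.51 CPM, rose with an adjusted p of 0.0328; the call was lost with any single Supinoxin library or untreated replicate 2 left out (adjusted p up to 0.141), and 21.5% of its exonic bases overlap those of ST7L on the opposite strand. WNT4 lay just outside the threshold (log2 fold change 0.85, adjusted p = 0.0516). WNT11, WNT16 and WNT9A had overlapping groups and log2 fold changes of -0.26, 0.53 and 0.23.

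The genes that every Wnt-secreting cell needs did not pass. PORCN encodes the acyltransferase that attaches the lipid to Wnt proteins and stood at 8.55 ± 0.205 CPM with Supinoxin and 8.77 ± 1.61 without (SD, n = 3 each; log2 fold change -0.04, adjusted p = 0.867). WLS encodes the carrier that brings lipidated ligands to the surface and stood at 18.8 ± 1.92 and 15.6 ± 4.16 CPM (log2 fold change 0.27, adjusted p = 0.27).

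Per kilobase of exon, a scale that allows genes to be compared, the 12 ligand genes summed to 38.3 ± 1.27 CPM per kb with Supinoxin and 32.4 ± 7.29 without. Among these 12, WNT11 and WNT5B were the most abundant in both groups. In untreated cells WNT11 stood at 13.7 ± 5.45 and WNT5B at 10.3 ± 2.04 CPM per kb, a difference smaller than their spread, followed by WNT5A at 3.19 ± 0.969 and WNT3 at 2.72 ± 0.570, which also did not differ beyond their spread. With Supinoxin the order was WNT5B at 13.5 ± 0.507, WNT11 at 11.4 ± 0.289, WNT5A at 5.60 ± 0.373 and WNT3 at 4.74 ± 0.449. This sum leaves out WNT1 and WNT10B, at 8.95 and 12.1 CPM per kb in untreated cells and both at 13.4 with Supinoxin. A share within these 12 genes does not depend on how libraries are scaled. The share of WNT7B was 3.73%, 3.98% and 3.97% with Supinoxin and 1.39%, 1.31% and 1.25% without, and that of WNT10A was 0.388%, 0.610% and 0.154% against 3.24%, 2.89% and 3.02%. WNT11 made up 28.9%, 30.4% and 30.4% against 50.3%, 34.7% and 39.6%, with untreated replicate 1 highest.

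**Figure D2:**
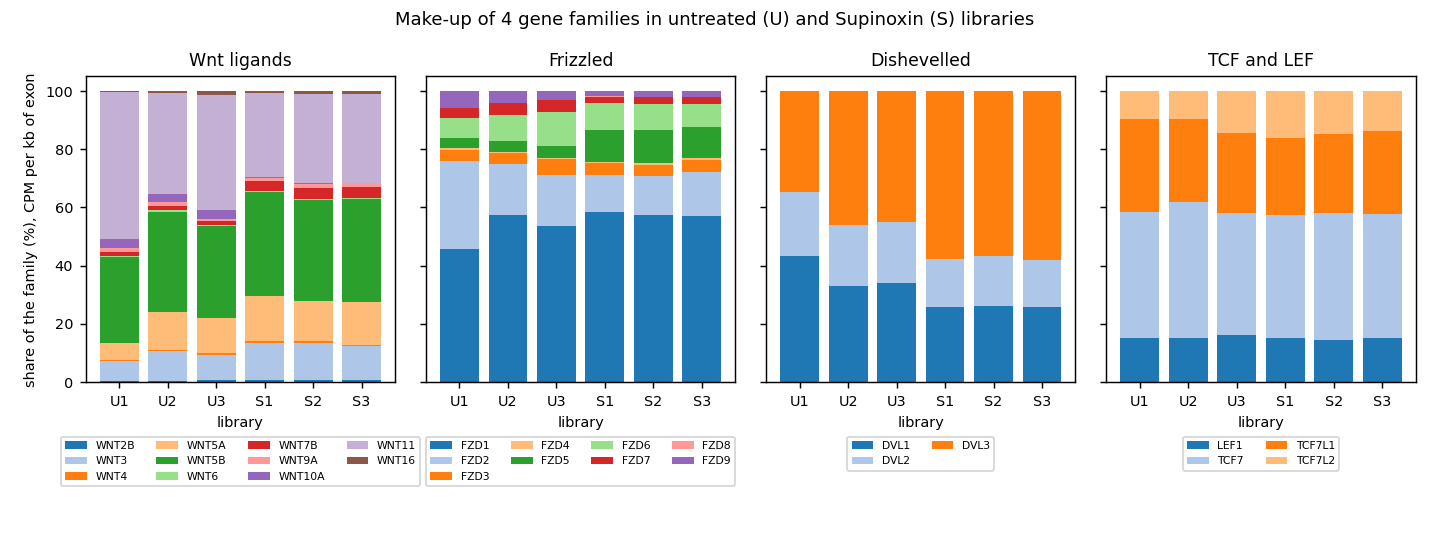
Share of each gene (y axis, percent of the family's summed CPM per kb of exon) in the ligand, Frizzled, Dishevelled and TCF/LEF families in untreated libraries (U1 to U3) and Supinoxin libraries (S1 to S3). The ligand sum leaves out WNT1 and WNT10B. FZD5 takes 10.8% to 11.6% of the Frizzled sum in the Supinoxin libraries and 3.51% to 4.04% in the untreated ones, and DVL3 takes 56.8% to 58.0% of the Dishevelled sum against 34.8% to 46.1%.

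FZD5 had the largest rise of all 52 tested Wnt genes. This receptor gene (ENSG00000163251, chromosome 2, 207762598 to 207769906, minus strand) encodes a Frizzled that binds canonical ligands, and it stood at 93.2, 89.8 and 88.2 CPM with Supinoxin and at 22.1, 25.0 and 20.9 CPM without. Its groups were tight and far apart, with a 3.99-fold rise (log2 fold change 2.00, SE 0.13, adjusted p = 1.78e-05). FZD1 (chromosome 7, 91264433 to 91271326), the most abundant Frizzled per kb here, had 481, 435 and 459 CPM against 282, 380 and 271 CPM. It rose 1.47-fold (adjusted p = 0.0161), a call that was lost without Supinoxin replicate 1 or 3 (adjusted p up to 0.0709). FZD4, a receptor that also serves Norrin in retinal vessels, stood at 3.90, 3.95 and 4.69 CPM against 2.99, 2.15 and 1.89 CPM. It rose 1.78-fold (adjusted p = 0.0122), a call that was lost without Supinoxin replicate 3 (adjusted p = 0.0578). For FZD4, 18.9% of exonic bases lie opposite PRSS23.

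FZD9 was the only Frizzled gene called lower. FZD9 stood at 5.15, 5.41 and 5.22 CPM with Supinoxin and at 12.1, 9.23 and 5.25 CPM without, so the groups touched: the lowest untreated library lay between Supinoxin libraries. Its log2 fold change was -0.75 (adjusted p = 0.042). Without untreated replicate 1, the highest library, it was -0.46 (adjusted p = 0.104), and with an offset for each library's trend with exonic length and GC content it was -0.07 (adjusted p = 0.725). FZD7, FZD6 and FZD3 had groups without overlap and log2 fold changes of -0.38, 0.36 and 0.30 that did not pass (adjusted p = 0.0653, 0.103 and 0.0771). FZD2 stood at 60.3 ± 5.73 and 71.3 ± 27.8 CPM (adjusted p = 0.429), and FZD8 had 2 to 14 counts per library (adjusted p = 0.123). The family as a whole summed to 115 ± 4.78 CPM per kb with Supinoxin and 86.2 ± 11.6 without. FZD1 gave 57.6% ± 0.684 of that sum with Supinoxin and 52.3% ± 5.95 without, overlapping groups, whereas FZD5 gave 11.1% ± 0.414 and 3.75% ± 0.268.

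The co-receptor genes rose. LRP5 (chromosome 11, 68312591 to 68449275) stood at 157, 164 and 165 CPM with Supinoxin and at 116, 111 and 77.4 CPM without, a 1.6-fold rise with no overlap (adjusted p = 0.00841). LRP6 stood at 5.46, 4.80 and 4.72 CPM against 2.52, 1.61 and 4.17 CPM. It passed with an adjusted p of 0.0403 and missed the threshold without untreated replicate 1 (adjusted p = 0.0595), untreated replicate 2 or any single Supinoxin library (adjusted p up to 0.113). LRP5 made up 98.2% ± 0.193 of the pair's CPM per kb with Supinoxin and 98.2% ± 1.20 without. Among receptors of beta-catenin-independent signalling, RYK stood at 69.3 ± 5.28 and 84.9 ± 5.70 CPM, without overlap (log2 fold change -0.29, adjusted p = 0.0772). RYK was called lower without untreated replicate 1 (log2 fold change -0.34, adjusted p = 0.00934). It was also called lower with the length and GC offset (log2 fold change -0.54, adjusted p = 0.00138). ROR1 and ROR2, the tyrosine kinase receptors for WNT5A, had 1 to 6 and 1 to 7 counts per library and were not tested.

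Of the genes that relay the signal or degrade beta-catenin, APC, DVL3 and GSK3B rose. APC (ENSG00000134982, chromosome 5, 112707518 to 112846239), the tumour suppressor scaffold of the destruction complex, stood at 11.7, 9.73 and 11.9 CPM with Supinoxin and at 3.05, 4.42 and 7.53 CPM without. All Supinoxin libraries lay above all untreated ones, for a 2.23-fold rise (log2 fold change 1.16, SE 0.29, adjusted p = 0.0095). DVL3 (chromosome 3, 184155377 to 184173614), a Dishevelled gene, had 384, 382 and 389 CPM against 269, 306 and 225 CPM and rose 1.44-fold (adjusted p = 0.0134). GSK3B (chromosome 3, 119821321 to 120094994), which encodes the kinase that phosphorylates beta-catenin, had 92.7, 83.8 and 88.1 CPM against 52.1, 66.9 and 68.8 CPM and rose 1.41-fold (adjusted p = 0.0171). The DVL3 call was lost without any single Supinoxin library (adjusted p up to 0.0587) and the GSK3B call without Supinoxin replicate 1 or 3 (adjusted p up to 0.0789). With an offset that removes each library's trend with exonic length and GC content, GSK3B stood at 0.08 (adjusted p = 0.443).

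CTNNB1 (ENSG00000168036, chromosome 3, 41194741 to 41260096), the gene of beta-catenin itself, had 400, 394 and 403 CPM with Supinoxin and 307, 404 and 397 CPM without. Only untreated replicate 1 lay away from the rest, and the log2 fold change was 0.11 (95% interval -0.21 to 0.43, adjusted p = 0.535), or 0.00 without that library and -0.22 with the length and GC offset (adjusted p = 0.057). These are RNA levels, and the pathway controls beta-catenin mainly through the stability of the protein, which was not measured. CSNK1A1, the gene of the priming kinase, had 150, 144 and 146 CPM against 92.3, 127 and 123 CPM, a log2 fold change of 0.36 that did not pass (adjusted p = 0.0692); 49.3% of its exonic bases lie in an unnamed gene on the same strand, so its counts are less certain. AXIN1, the limiting scaffold, stood at 96.0 ± 4.68 and 75.7 ± 11.02 CPM (adjusted p = 0.0702). No gene of this level was called lower by edgeR, also at an unadjusted p under 0.05 (0 of 9), nor by DESeq2 (0). Over all genes tested, 4577 of 15947 were lower at that unadjusted threshold in edgeR. With 9 genes, no conclusion on direction was drawn from the 0.

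The paralogues of DVL3 and GSK3B did not pass. DVL1 and DVL2 stood at 107 ± 1.61 and 93.0 ± 2.41 CPM with Supinoxin and at 149 ± 52.5 and 116 ± 27.3 CPM without, with log2 fold changes of -0.47 and -0.31 and overlapping groups (adjusted p = 0.104 and 0.162). Within the Dishevelled family DVL3 took 57.8%, 56.8% and 58.0% of CPM per kb with Supinoxin and 34.8%, 46.1% and 45.1% without, so the shares did not overlap, while the family sum was 106 ± 0.677 and 102 ± 21.9 CPM per kb. GSK3A stood at 35.1 ± 0.436 and 45.7 ± 14.9 CPM (log2 fold change -0.38, adjusted p = 0.152), and its share of the GSK3 pair was 55.1% ± 1.47 and 68.1% ± 9.55. Without untreated replicate 3, DVL1, DVL2 and GSK3A were called lower (adjusted p = 0.0177, 0.0141 and 0.0323), and with the length and GC offset DVL1 stood at 0.02 (adjusted p = 0.817) and GSK3A at -0.38 (adjusted p = 0.0476). The GC content of the exons is 67.4% for DVL1 and 56.8% for DVL3, and 55.2% for GSK3A and 39.9% for GSK3B; its part in the difference between paralogues was not tested.

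**Figure D3:**
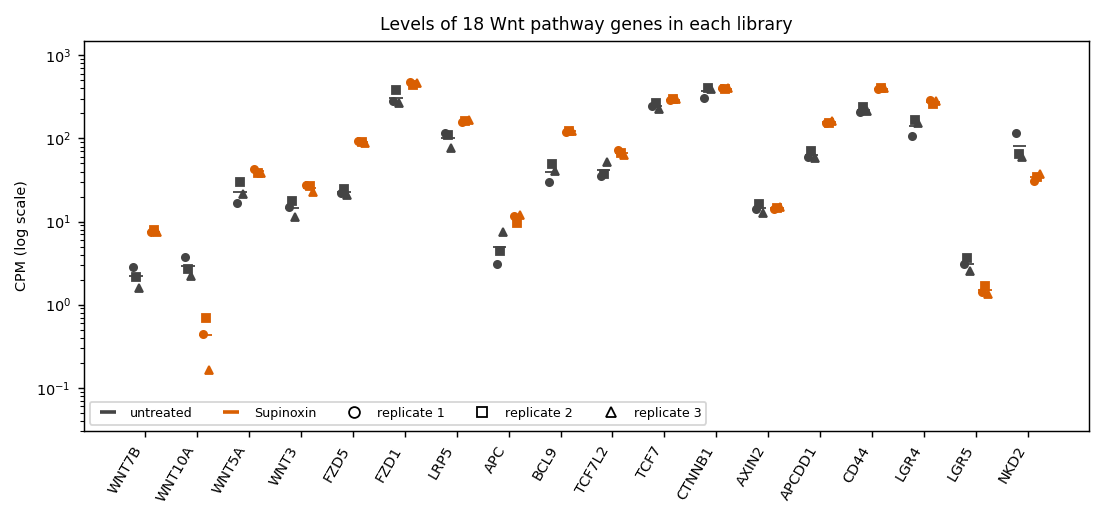
CPM (y axis, log scale) of 18 Wnt pathway genes in each library, untreated in dark grey and Supinoxin in orange, with replicate shown by symbol and the group mean by a bar. FZD5, BCL9, APCDD1, CD44 and LGR4 lie higher in all 3 Supinoxin libraries, WNT10A, LGR5 and NKD2 lie lower, and CTNNB1 and AXIN2 overlap.

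In the nucleus, BCL9 and TCF7L2 rose and no gene was called lower by edgeR or DESeq2 (0 of 7 also at an unadjusted p under 0.05). Lower at that unadjusted threshold in edgeR were 4577 of all 15947 genes tested, and 7 genes are too few to read a direction from. BCL9 (ENSG00000116128, chromosome 1, 147541501 to 147626216) encodes the adaptor that links beta-catenin to Pygopus, and it stood at 121, 123 and 122 CPM with Supinoxin and at 29.7, 49.8 and 40.5 CPM without. The Supinoxin libraries were nearly identical and all higher, for a 3.05-fold rise (log2 fold change 1.61, SE 0.18, adjusted p = 0.000287). PYGO2, the Pygopus that BCL9 recruits, had 98.8, 105 and 102 CPM against 107, 116 and 82.4 CPM, overlapping groups with a log2 fold change of 0.00 (95% interval -0.33 to 0.34, adjusted p = 0.984). CTNNBIP1, whose product keeps beta-catenin from TCF factors, stood at 16.5 ± 0.992 and 16.5 ± 4.65 CPM (adjusted p = 0.986).

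All 4 TCF and LEF genes were counted in every library. TCF7L2 (chromosome 10, 112950247 to 113167678), the main TCF of the intestinal crypt, had 73.4, 66.9 and 62.8 CPM with Supinoxin and 35.4, 37.1 and 52.5 CPM without, and rose 1.62-fold (adjusted p = 0.00805). TCF7, known from T cells, had 289, 296 and 296 CPM against 243, 268 and 229 CPM. LEF1 had 55.9, 52.7 and 55.0 CPM against 44.7, 46.5 and 47.2 CPM, and TCF7L1, mostly a repressor, had 79.8, 80.3 and 86.1 CPM against 78.7, 71.1 and 65.5 CPM. In these 3 genes every Supinoxin library was above every untreated one, but the log2 fold changes of 0.25, 0.24 and 0.19 did not pass (adjusted p = 0.118, 0.104 and 0.22). They passed without untreated replicate 1 (adjusted p = 0.0368, 0.0352 and 0.0194), with log2 fold changes of 0.25, 0.23 and 0.27. With the length and GC offset the values were 0.06, 0.16 and 0.32 (adjusted p = 0.571, 0.117 and 0.00891). The family summed to 67.8 ± 0.534 CPM per kb with Supinoxin and 55.4 ± 1.36 without. TCF7 took the largest share in both groups, 42.9% ± 0.789 and 44.04% ± 2.46, and TCF7L2 took 14.8% ± 1.19 and 11.2% ± 2.80, with overlapping values.

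Genes listed under feedback and targets stood on both sides, with 7 higher and 3 lower of 12 tested. APCDD1 (ENSG00000154856, chromosome 18, 10454635 to 10489949), a membrane inhibitor that binds Wnt and LRP5, stood at 153, 155 and 164 CPM with Supinoxin and at 60.2, 69.7 and 57.7 CPM without. The groups lay far apart (log2 fold change 1.33, SE 0.13, adjusted p = 0.000127). LGR4 (chromosome 11, 27365961 to 27472790), a receptor of R-spondins, had 288, 261 and 280 CPM against 108, 167 and 153 CPM and rose 1.94-fold (adjusted p = 0.00207). CD44 (chromosome 11, 35138882 to 35232402), the hyaluronan receptor, had 389, 402 and 399 CPM against 206, 238 and 217 CPM, again without overlap (log2 fold change 0.85, SE 0.12, adjusted p = 0.000793).

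LGR5 and NKD2 fell. LGR5 (ENSG00000139292, chromosome 12, 71439798 to 71586310), the stem cell marker and R-spondin receptor related to LGR4, stood at 1.44, 1.67 and 1.35 CPM with Supinoxin and at 3.11, 3.67 and 2.54 CPM without. All Supinoxin values were below all untreated ones, a 2.09-fold fall (log2 fold change -1.06, SE 0.22, adjusted p = 0.00395). Per kb, LGR4 stood at 43.4 ± 2.16 and LGR5 at 0.285 ± 0.0316 CPM with Supinoxin. NKD2 (chromosome 5, 1008802 to 1038943), a Dishevelled-binding inhibitor, had 31.1, 34.1 and 37.5 CPM with Supinoxin and 116, 65.2 and 59.5 CPM without, with untreated replicate 1 far above the others. Its log2 fold change was -1.23 (SE 0.24, adjusted p = 0.00308), and -0.86 without that library (adjusted p = 9.18e-05). NOTUM, which encodes the enzyme that removes the lipid from Wnt ligands, had 52.8, 52.9 and 50.9 CPM against 125, 83.2 and 58.3 CPM. Its log2 fold change of -0.77 (adjusted p = 0.0244) was -0.43 without untreated replicate 1 (adjusted p = 0.0247) and -0.18 with the length and GC offset (adjusted p = 0.117), and the call was also lost on leaving out untreated replicate 2 or any 1 Supinoxin library (adjusted p up to 0.0717).

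AXIN2 (ENSG00000168646, chromosome 17, 65528563 to 65561648), the most widely used readout of beta-catenin activity, had 14.1, 14.5 and 15.1 CPM with Supinoxin and 14.0, 16.4 and 12.8 CPM without. The groups overlapped, and the log2 fold change was 0.02 with a 95% interval of -0.31 to 0.34 (adjusted p = 0.936). Over all 13 alternatives it ran from -0.07 to 0.15 and passed in 0 of them (adjusted p from 0.461 to 0.99). An unnamed gene on its strand covers 25.3% of its exonic bases. TNFRSF19, a receptor of the tumour necrosis factor family, also overlapped, at 133 ± 6.08 and 129 ± 17.3 CPM (log2 fold change 0.04, adjusted p = 0.845).

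The remaining genes listed under feedback and targets that passed were all higher. SOX4, a transcription factor of progenitor cells, stood at 206 ± 9.10 CPM with Supinoxin and 134 ± 9.57 without (log2 fold change 0.62, adjusted p = 0.00324). ZNRF3, which encodes a ubiquitin ligase that clears Frizzled from the surface, stood at 51.2 ± 1.08 and 36.1 ± 4.03 CPM (log2 fold change 0.50, adjusted p = 0.00967). The ZNRF3 call was lost without Supinoxin replicate 3 (adjusted p = 0.0522). DKK3, a divergent Dickkopf, and BAMBI, a pseudoreceptor that damps TGF-beta signalling, had log2 fold changes of 0.61 and 1.03 (adjusted p = 0.011 and 0.0333). For DKK3, 47.5% of exonic bases lie opposite USP47. The DKK3 call was lost without Supinoxin replicate 2 (adjusted p = 0.0589) and with the length and GC offset (adjusted p = 0.0818). BAMBI had 20 to 105 counts per library and was not called without any single Supinoxin library (adjusted p up to 0.0975).

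The filter left 8 genes untested. WNT6 had 4 to 8 counts with Supinoxin and 8 to 15 without, and NKD1, ROR1 and ROR2 had 1 to 7 counts per library. WNT7A, RNF43, SP5 and DKK1 were listed at 0 in all 6 libraries. They were not read as silent, because PPP2CA, the catalytic subunit of protein phosphatase 2A that dividing cells need, was listed at 0 as well. For RNF43 and PPP2CA, 68.4% and 26.1% of exonic bases lie in a second annotated gene of that strand. The cause of these zeros was not tested.

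Promoter windows of the 250 bases before annotated starts were read for 47 of the 60 genes (RefSeq, GRCh38.p14), in 59 windows because some genes have several starts. They were searched on both strands for the TCF/LEF words ATCAAAG and AACAAAG, which differ at their second letter and so cannot match at the same place. ATCAAAG was in 1.69% of the Wnt gene windows and 2.26% of all 35116 windows, AACAAAG in 5.08% and 4.5%, and either in 6.78% and 6.6%. These shares are not like for like, because the median GC content was 68.8% in the Wnt gene windows and 58.0% in all windows. AXIN2, LGR5, NKD1, ZNRF3 and NOTUM were among the genes without a window, so the shares do not cover them. The 4 windows that hold a word are shown first, with the word in capitals as it reads on the gene's strand, followed by those of FZD5, the largest rise, and NKD2, the called feedback gene with the largest fall, in which no such word was found. SP5 and DKK1 are among the genes listed at 0, TCF7 did not pass and TCF7L2 rose; the TCF7 and TCF7L2 windows belong to starts inside those genes, and gene-level counts do not separate starts. The windows lie at chr2:170715087-170715336 (plus strand, SP5), chr10:52314031-52314280 (plus, DKK1), chr5:134123368-134123617 (plus, TCF7), chr10:113126383-113126632 (plus, TCF7L2), chr2:207769907-207770156 (minus, FZD5) and chr5:1008552-1008801 (plus, NKD2).
SP5: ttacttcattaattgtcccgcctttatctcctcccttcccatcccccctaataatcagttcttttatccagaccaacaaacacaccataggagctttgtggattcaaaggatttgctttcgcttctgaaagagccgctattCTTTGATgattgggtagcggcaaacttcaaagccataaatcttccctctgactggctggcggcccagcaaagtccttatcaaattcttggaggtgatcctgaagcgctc
DKK1: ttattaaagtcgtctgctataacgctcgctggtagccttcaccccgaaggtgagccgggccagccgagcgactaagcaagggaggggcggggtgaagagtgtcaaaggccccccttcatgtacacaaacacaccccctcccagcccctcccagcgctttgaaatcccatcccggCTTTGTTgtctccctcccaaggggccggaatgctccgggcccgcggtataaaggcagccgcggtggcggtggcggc
TCF7: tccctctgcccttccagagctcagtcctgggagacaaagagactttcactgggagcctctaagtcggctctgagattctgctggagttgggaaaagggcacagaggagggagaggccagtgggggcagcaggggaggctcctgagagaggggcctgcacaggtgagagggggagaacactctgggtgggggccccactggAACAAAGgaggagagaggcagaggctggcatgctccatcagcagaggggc
TCF7L2: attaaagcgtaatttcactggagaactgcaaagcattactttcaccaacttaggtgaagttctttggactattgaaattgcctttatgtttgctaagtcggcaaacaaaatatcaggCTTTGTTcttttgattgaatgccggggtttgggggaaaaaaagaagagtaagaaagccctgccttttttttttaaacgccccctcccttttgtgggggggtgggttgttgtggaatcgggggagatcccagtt
FZD5: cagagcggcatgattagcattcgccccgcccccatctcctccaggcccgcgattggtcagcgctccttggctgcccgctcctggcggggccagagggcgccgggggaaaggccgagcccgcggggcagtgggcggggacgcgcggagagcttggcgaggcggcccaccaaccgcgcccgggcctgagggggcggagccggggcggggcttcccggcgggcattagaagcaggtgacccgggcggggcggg
NKD2: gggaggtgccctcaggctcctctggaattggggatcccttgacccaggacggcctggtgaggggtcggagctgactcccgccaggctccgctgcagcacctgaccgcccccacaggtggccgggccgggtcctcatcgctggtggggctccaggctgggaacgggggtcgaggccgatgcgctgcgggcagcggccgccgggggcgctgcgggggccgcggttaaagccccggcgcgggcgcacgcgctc

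The 21 Wnt genes that were higher had a median GC content of 47.6% (39.9% to 64.7%) and a median exonic length of 6894 bases. The 5 that were lower had 66.9% (43.2% to 68.5%) and 2913 bases. Of these 5, FZD9, NKD2 and NOTUM (68.5%, 67.3% and 66.9%) lay above all 21 in GC content. WNT10A at 62.2% lay near the top of the range of the 21, and only LGR5 at 43.2% lay low in it. Over all genes the medians were 46.6% and 6790 bases among those higher and 51.4% and 3408 bases among those lower. Across the 52 tested Wnt genes Spearman's rho between fold change and GC content was -0.32, and with length it was 0.42 (over genes of the same 6 libraries, which are not independent replicates), against -0.18 and 0.26 over all 15926 genes with an annotation. With the offset that removes each library's trend with length and GC content, 22 Wnt genes were higher and 5 lower, where 26.7% and 30.1% of all genes were. FZD9, NOTUM, GSK3B, DKK3, LRP6 and WNT2B then missed the threshold, while WNT10A, NKD2, LGR5, WNT7B, FZD5, BCL9, APCDD1, CD44 and LGR4 passed. Called only with the offset and not in the main fit were WNT4, WNT5B, FZD6, AXIN1 and TCF7L1 as higher, and RYK and GSK3A as lower.

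**Figure D4:**
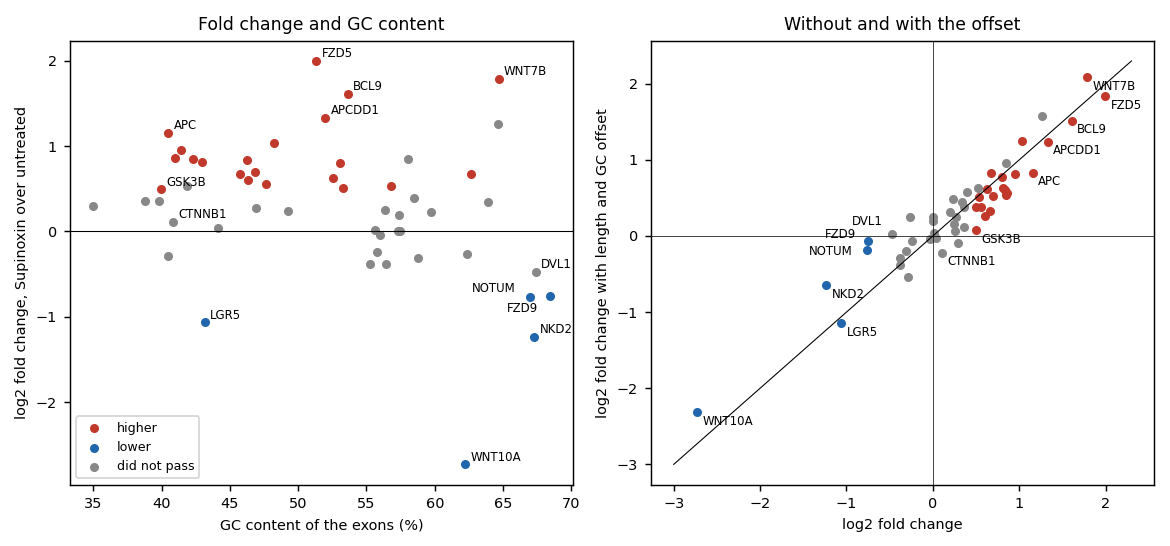
Left, log2 fold change (y axis) against GC content of the exons (x axis, percent) for the 52 tested Wnt genes, coloured by call; right, log2 fold change without (x axis) and with (y axis) the length and GC offset, with the line of equality. FZD9, NOTUM and NKD2, with GC contents of 68.5%, 66.9% and 67.3%, move toward 0 with the offset, and FZD5 and BCL9 stay near the line.

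Of the 26 called genes, 12 that were higher (WNT3, WNT5A, WNT7B, FZD5, LRP5, APC, BCL9, TCF7L2, LGR4, APCDD1, CD44 and SOX4) and 3 that were lower (WNT10A, NKD2 and LGR5) passed in each of the 13 alternatives run. Single alternatives called 29.4% to 56.8% of all genes tested in either direction. The share of all genes that passed in every alternative was not computed, so these counts are not set against a background.

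The other 87 genes of the pathway, in 7 lists, gave 64 tested genes, of which 27 (42.2%) were higher and 8 (12.5%) lower, against 23.4% and 25.2% of all genes tested, with a median log2 fold change of 0.25. In either direction 48.6% of all genes were called. Among 12 other ligands and R-spondins, WNT1 rose 1.49-fold, at 31.3, 34.0 and 31.7 against 21.4, 24.9 and 18.7 CPM (adjusted p = 0.00825). Its neighbour on chromosome 12, WNT10B, had overlapping groups of 34.0, 35.7 and 34.5 against 36.5, 33.8 and 23.8 CPM (adjusted p = 0.483), and the other 10 were not tested. Per kb WNT1 and WNT10B stood at 8.95 and 12.1 CPM in untreated cells and both at 13.4 with Supinoxin, so both were above WNT11 with the drug, while WNT10B and WNT5B did not differ beyond their spread without it.

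Of 7 tested other receptors 2 were higher and 2 lower (57.1% called). KREMEN2, a receptor that removes LRP6 together with Dickkopf, had 5.80, 5.57 and 7.20 CPM with Supinoxin against 47.3, 24.9 and 19.9 CPM (log2 fold change -2.31, adjusted p = 0.000547), of which 15.3% of exonic bases lie opposite PKMYT1. The glypican gene GPC4 had 1, 4 and 4 counts against 25, 60 and 31; it is 1 of the 2 counted as lower, but it passed the filter only through the untreated libraries, so its call is no support for a fall. Of 4 tested secreted inhibitors, SFRP2, a soluble Frizzled-like decoy, fell 10.9-fold, from 3.91, 4.04 and 2.90 to 0.314, 0.451 and 0.221 CPM (adjusted p = 8.76e-05). SFRP5, at 16.4 ± 1.58 and 12.98 ± 2.06 CPM, did not pass (adjusted p = 0.108).

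Inside the cell, 7 of 15 tested cytoplasmic parts were higher and 1 lower (53.3% called, near the 48.6% of all genes). CCDC88C, a Dishevelled-binding protein gene, rose 2.01-fold, from 43.7, 52.3 and 48.1 to 98.5, 94.4 and 97.1 CPM (adjusted p = 0.000362), and PPP2R1A, the scaffold of protein phosphatase 2A, fell 2.02-fold, from 805, 613 and 487 to 300, 318 and 328 CPM (adjusted p = 0.00208). Of 14 nuclear cofactors 7 were higher and 1 lower (57.1% called). The acetyltransferase coactivators EP300 and CREBBP led this list: EP300 had 65.8, 67.2 and 72.8 CPM with Supinoxin against 9.33, 23.4 and 14.8 CPM, and CREBBP had 234, 233 and 231 CPM against 63.1, 93.0 and 71.5 CPM (4.33-fold and 3.07-fold, adjusted p = 0.000553 and 0.000155). Both were well separated between the groups.

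Of 12 tested genes of planar cell polarity and other noncanonical signalling, 5 were higher and 1 lower (50% called, near the background of 48.6%). CELSR3, an atypical cadherin gene, had 19.2, 21.2 and 17.7 CPM with Supinoxin against 7.37, 9.18 and 5.38 CPM and rose 2.65-fold (adjusted p = 0.000755), and ANKRD6, a Dishevelled-binding protein gene, had 0.392, 0.292 and 0.386 CPM against 1.04, 2.06 and 2.90 CPM and fell 5.55-fold (adjusted p = 0.00149). For ANKRD6, 27.2% of exonic bases lie opposite LYRM2. Of 10 tested further reported targets 5 were higher and 2 lower (70% called), and a pair of ephrin receptor genes known as targets in the intestine moved apart. EPHB2 fell 4.08-fold, from 111, 114 and 92.6 to 25.5, 27.3 and 25.4 CPM (adjusted p = 2.04e-05), and EPHB3 rose 2.12-fold, from 69.3, 58.1 and 47.2 to 120, 123 and 126 CPM (adjusted p = 0.00079).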

How the data were processed

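The authors deposited 1 table of raw counts per Ensembl gene, without normalization, for the 6 libraries. The submitters' processing notes name GRCh38 as the build and, in no given order, STAR, featureCounts, fastp, Trim Galore 0.4.4, edgeR and DESeq2. Annotation release, strand setting and treatment of multi-mapped reads: not given in the sources used here, so overlapping genes cannot be told apart. Columns were matched to samples by name, WT columns being taken as untreated; the treatment protocol in the labels is the same text for all 6 samples, so groups came from the sample titles. Positions, exonic length and GC content came from GENCODE 44 (GRCh38), which held 60463 of 60605 identifiers.

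Counts were tested with edgeR 4.0.16 in R 4.3.3 (filterByExpr, TMM, robust quasi-likelihood fit on treatment alone, two-sided), Benjamini-Hochberg adjusted over 15947 genes. The procedure was tested on simulated data with less spread than the deposited counts and no library that stood apart, so that test does not cover these features. In the deposited counts the biological coefficient of variation was 17%. CPM use TMM-scaled library sizes, and 95% intervals use the SE of the fit. The 13 alternatives were RLE scaling, library size alone, no filter, a filter of 1 CPM in 3 libraries, DESeq2 1.42.0, a replicate block, an offset for length and GC trends (mgcv 1.9.3), and leaving out each library.

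The 60 genes, their levels, the other lists and the naming rule were chosen with earlier results of these data known. Values per library are given, in each level, for the 4 tested genes of smallest p and the 2 of highest mean CPM, for CTNNB1, AXIN2, LEF1, TCF7, TCF7L1, TCF7L2, LGR5 and CD44, and for the 2 of smallest p in each other list. WNT2B, FZD9, LRP6, NOTUM and DDX5 were added after their values were seen. EPCAM, from the marker lists, is also given per library and is outside this rule. Of the marker lists, 1 gene is not reported here.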

Additional observations from a re-analysis of the deposited data

How the results depend on the processing

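Numbers of Wnt genes called with all 6 libraries were 21 higher and 5 lower. They ran from 13 to 27 higher and from 3 to 9 lower when single libraries were left out, while 15.6% to 26.5% of all genes were higher and 17.1% to 27.4% lower. By level, such removals gave 2 to 7 higher and 0 to 2 lower receptors, 1 to 5 higher and 0 to 3 lower destruction complex genes and transducers, 2 to 5 higher nuclear factors, and ligand medians of 0.24 to 0.52. With library size alone, 0 receptors were lower and the median of the nuclear factors was 0.38 in place of 0.24; this scaling moved the median of all genes by 0.14. With the length and GC offset, 1 gene of the destruction complex level was lower, the median of that level was 0.077 in place of 0.34, and that of feedback genes and targets was 0.32 in place of 0.56. The replicate block gave 21 higher and 5 lower Wnt genes (22.5% and 22.9% of all genes), as did DESeq2 (24.5% and 26.7% of all genes). Same-numbered libraries did not deviate together (correlations of -0.13, -0.04 and -0.03), and differently numbered pairs gave -0.107 to 0.141. With so few libraries these values cannot show whether same-numbered libraries shared a culture or a day. No called gene reversed its sign in these runs, while 11 genes without a call did. Calls of FZD9, NOTUM, LRP6 and WNT2B were lost in 5 to 7 of the 13 alternatives. The cause was not tested. FZD8 had 2 to 14 counts per library and passed without untreated replicate 3 (adjusted p = 0.0129), and WNT6 had 4 to 15 counts and was not tested.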
